A study of Mus musculus with 14 samples.

Results

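Muscle progenitor transcription factors were followed through RNA-seq and RNA immunoprecipitation sequencing (RIP-seq) of mouse muscle stem cells (MuSCs). The group holds 8 genes chosen by symbol, the paired box factors Pax3 and Pax7, the homeodomain factor Six4, its coactivators Eya1 and Eya4, the mesenchyme homeobox factors Meox1 and Meox2, and the T-box factor Tbx2, out of 16545 genes with a symbol in any of the tables. Lin28a+ MuSCs, which the paper describes as sorted from skeletal muscle of Lin28a-CreERT2; LSL-tdTomato mice, were compared with control MuSCs, whose genotype label is Control. In such a line the Lin28a promoter drives an inducible Cre, so the label marks cells that expressed Lin28a and their descendants. All cells were cultured on Matrigel in medium with serum, the tamoxifen schedule and the age and number of mice are not given in the sources used here, and nothing states whether libraries of a group came from separate mice, so p-values measure only the spread between these libraries. Input RNA (RNA-seq), m6A-RIP and Igf2bp3-RIP were each sequenced in 2 control and 2 Lin28a+ libraries, and Lin28a-RIP in 2 Lin28a+ libraries, 14 in all.

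These genes sit near the top of the regulatory network of skeletal muscle. Pax3 and Pax7 bind DNA through a paired domain and a homeodomain, specify muscle precursors in the embryo, and Pax7 also marks the stem cells of adult muscle. Six4 and its relatives bind the MEF3 site in promoters of muscle genes and recruit Eya proteins, which bind no DNA themselves and act as coactivators. Meox1 and Meox2 pattern the somites and the migrating precursors of limb muscle, and Tbx2 is mostly known as a repressor in heart and limb development. m6A is a methyl mark on adenosine in RNA that an antibody can pull down, and Igf2bp3 and Lin28a are RNA-binding proteins.

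Of the 8 genes, 7 were listed in the input table of 14837 genes, 6 passed the filter on low counts, 5 had a row in the m6A-RIP table, 4 had a peak in the Igf2bp3-RIP table and 2, Pax7 and Six4, had a peak in the Lin28a-RIP table. Pax3, Meox1 and Meox2 had no row in any RIP table, and Meox2 was not listed in the input either. The RIP tables list only called peaks, so a gene without a row has no level there.

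The labelled cell type was checked first. Of 17 myogenic marker genes, 16 were listed in the input, with a summed level of 16826 and 17136 CPM (counts scaled to library size by edgeR's TMM factors) in control against 15861 and 16033 CPM in Lin28a+ MuSCs. Of these 16, 4 were higher in Lin28a+ MuSCs, 8 lower and 4 did not pass the test. Myog, a factor of myogenic differentiation, rose from 764 and 773 CPM in control to 2763 and 2804 CPM, whereas Chrna1, a subunit of the acetylcholine receptor, fell from 5918 and 5977 CPM to 3112 and 3158 CPM, and Vcam1, a surface protein of MuSCs, from 16.8 and 18.3 CPM to 3.97 and 5.22 CPM. Of 10 endothelial markers 4 were listed, summing to at most 1.9 CPM, and of 10 macrophage markers 5, summing to at most 3.25 CPM, without Cdh5, Kdr, Adgre1 or C1qa among the genes listed. In m6A-RIP, however, 4 endothelial markers had rows, 3 of them higher in Lin28a+ MuSCs, and only 1 of these 4 was listed in the input. Macrophage markers had 0 genes with m6A-RIP rows. Not being listed in the input therefore does not show that RNA of a gene was absent. Of 14 markers of fibro-adipogenic progenitors, 8 were listed, without Dcn and Lum, and summed to 309 and 318 CPM in control against 282 and 272 CPM in Lin28a+ MuSCs, with Pdgfra at or under 0.235 CPM. Of the 5 tested, 2 were higher in Lin28a+ MuSCs (Fbln1 and Ly6a), 2 were lower (Gsn and Smoc2) and Col3a1 did not pass. Of 10 Schwann cell markers 6 were listed, and they summed to 84.4 and 85.2 CPM in control against 158 CPM in each Lin28a+ library, almost all of it from Erbb3 and Pmp22, both higher, whereas Sox10 was not listed. Of 12 pericyte and smooth muscle markers 10 were listed, without Cspg4 and Kcnj8, summing to 7551 and 7561 CPM in control against 8941 and 8920 CPM in Lin28a+ MuSCs, most of it Acta2. All 7 tested passed, 4 higher in Lin28a+ MuSCs (Acta2, Mcam, Notch3 and Pdgfrb) and 3 lower (Tagln, Rgs5 and Des, which is also on the myogenic list). Mcam, a surface adhesion molecule, was at 6.67 and 5.86 CPM in control against 56.3 and 55.8 CPM, and Tagln, an actin-binding protein of smooth muscle, at 284 and 292 CPM against 77.1 and 75.2 CPM, while Myh11, the smooth muscle myosin, was at or under 0.0803 CPM in each library. Of 9 tenocyte markers 4 were listed, without Tnmd, Fmod, Thbs4, Kera and Comp, summing to 207 and 201 CPM in control against 265 and 273 CPM in Lin28a+ MuSCs. Scx, a tendon factor, was higher in Lin28a+ MuSCs, at 137 and 143 CPM against 65.9 and 66.4 CPM in control, as was Tnc, whereas Egr1, an immediate early gene on the same list, was lower, at 4.22 and 3.47 CPM against 45.0 and 39.8 CPM. The part of these markers in the results below was not tested. Library totals ran from 4842915 to 6220960 estimated counts in the input and from 9215355 to 34142094 counts in the RIP tables with both groups.

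The promoter windows of the members that changed in RNA are shown because Six4, a factor of the MEF3 site, carries that site itself. RefSeq windows of GRCm38.p6, from 250 bases before to 50 after a start site, matched 4 of the 8 genes, Pax7, Six4, Eya4 and Meox2, and were not matched for Pax3, Eya1, Meox1 and Tbx2. One of the pair of Six4 windows, chr12:73113196-73113495 on the minus strand, held the 9 letters TCAGGTTTC of MEF3 on the opposite strand, from 99 to 91 bases before the start site, and these 9 letters occurred in 0.429% of 32851 windows of the same length. In the sequences below, read 5′ to 3′ along the gene, capitals mark this site and each E-box, the letters CANNTG that myogenic factors bind.
Six4, chr12:73113196-73113495: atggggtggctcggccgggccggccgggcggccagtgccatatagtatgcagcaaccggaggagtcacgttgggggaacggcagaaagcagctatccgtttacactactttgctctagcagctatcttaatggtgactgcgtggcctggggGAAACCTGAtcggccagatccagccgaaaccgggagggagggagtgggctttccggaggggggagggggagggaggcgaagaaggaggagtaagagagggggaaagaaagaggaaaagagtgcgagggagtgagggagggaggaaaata
Eya4, chr10:23349894-23350193: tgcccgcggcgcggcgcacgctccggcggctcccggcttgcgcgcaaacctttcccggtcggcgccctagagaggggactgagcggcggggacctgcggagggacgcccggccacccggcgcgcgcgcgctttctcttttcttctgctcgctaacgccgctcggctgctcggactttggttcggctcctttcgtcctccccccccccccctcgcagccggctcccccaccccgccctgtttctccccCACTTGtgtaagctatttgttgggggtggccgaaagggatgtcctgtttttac
Pax7, chr4:139832919-139833218: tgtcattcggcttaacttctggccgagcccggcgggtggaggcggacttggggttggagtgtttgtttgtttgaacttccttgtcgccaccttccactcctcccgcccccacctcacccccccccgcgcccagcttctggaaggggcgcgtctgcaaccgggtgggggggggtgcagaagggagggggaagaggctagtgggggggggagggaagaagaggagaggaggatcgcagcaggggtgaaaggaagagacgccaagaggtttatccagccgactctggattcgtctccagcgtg
The pair of Eya4 windows on the minus strand of chromosome 10 overlap and hold the same single E-box, which spans the start site of the window at chr10:23349894-23350193 and lies from 56 to 51 bases before that of the window at chr10:23349841-23350140. The Pax7 window on the minus strand of chromosome 4 held none, and an E-box was present in 72.3% of all windows. The other Six4 window, chr12:73113376-73113675, held no MEF3 site and no E-box. The MEF3 letters lie downstream of the start site of that window. Further letters searched on both strands were the homeodomain core TAAT, in 58.0% of all windows, the paired-domain core GTCAC, in 45.6%, and the T-box letters GGTGTG, in 19.0%. The Six4 window above held TAAT once and GTCAC at 2 places, 1 of which also lies in the other Six4 window, the Meox2 window held TAAT once, and the Pax7 and Eya4 windows held none of them. The letters CANNTG read the same on both strands, and no match of these motifs overlapped another. A match describes the letters only and says nothing on binding in these cells.

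Pax7, the marker of adult muscle stem cells, was higher in Lin28a+ MuSCs. Its RNA was at 142 and 154 CPM in the control libraries and at 193 and 188 CPM in the Lin28a+ libraries, so the groups did not overlap. The log2 fold change was 0.36 ± 0.045 (SE, n = 2 libraries per group, edgeR quasi-likelihood adjusted p = 0.00108), a fold of 1.28. This call held under each other setting and with any library left out.

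Pax3, the close relative of Pax7, had 34.7 to 44.3 estimated counts in a library. Its RNA was at 7.10 and 7.12 CPM in control and at 8.04 and 7.07 CPM in Lin28a+ MuSCs. The groups overlapped, and the log2 fold change of 0.10 ± 0.23 (SE) did not pass the test (edgeR adjusted p = 0.727).

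Six4, the DNA-binding partner of the Eya coactivators, was slightly lower in Lin28a+ MuSCs. Its RNA was at 94.4 and 98.2 CPM in control and at 84.3 and 86.5 CPM in Lin28a+ MuSCs, without overlap. The log2 fold change of -0.18 ± 0.065 (SE) passed the test (edgeR adjusted p = 0.0148), but the call was lost with DESeq2 (adjusted p = 0.380), without control input replicate 2 (edgeR adjusted p = 0.128) and without the first unnumbered Lin28a+ input library (0.102).

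Of the Eya coactivators, Eya4 was lower in Lin28a+ MuSCs and Eya1 missed the threshold. Eya4 RNA was at 14.1 and 16.2 CPM in control and at 10.9 and 7.23 CPM in Lin28a+ MuSCs. The groups did not overlap, and the log2 fold change of -0.74 ± 0.19 (SE) passed the test (edgeR adjusted p = 0.0190). The Eya4 call was lost with DESeq2, at a log2 fold change of -0.75 (DESeq2 adjusted p = 0.155). It was also lost without control input replicate 2, at -0.62, and without the second unnumbered Lin28a+ input library, at -0.47. Without control input replicate 1 the value was -0.84, and without the first unnumbered Lin28a+ library -1.09. Eya1 RNA was at 9.07 and 10.2 CPM in control and at 7.15 and 7.14 CPM in Lin28a+ MuSCs. Its groups did not overlap either, but the log2 fold change of -0.46 ± 0.22 (SE) missed the threshold (edgeR adjusted p = 0.0583), which it passed with a filter of at least 10 counts in every library (edgeR adjusted p = 0.0454) and with limma (adjusted p = 0.0102).

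Tbx2 and the Meox genes completed the set. Tbx2 RNA was at 17.8 and 19.3 CPM in control and at 9.41 and 17.8 CPM in Lin28a+ MuSCs, so 1 of the Lin28a+ libraries lay level with control. Its log2 fold change of -0.46 ± 0.25 (SE) did not pass the test (edgeR adjusted p = 0.181), and without the first unnumbered Lin28a+ library it was -0.065 (adjusted p = 0.798), without the second -0.98 (0.00239). Meox1 was at 6 and 2 estimated counts in control and at 9 and 10 in Lin28a+ MuSCs, and was left out of the test by the filter on low counts.

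Of the 6 members tested in RNA, 1 was higher (Pax7), 2 were lower (Six4 and Eya4) and 3 did not pass the test. Over all 11317 genes tested, 56.8% were called, 28.1% higher and 28.7% lower, so the members' share was near that of all genes. The count fell from 3 to 1, Pax7, with DESeq2 and also without control input replicate 2, where the share over all genes was 26.9% and 47.5%. In bulk RNA a change in the share of cells that express a gene and a change in RNA per cell cannot be told apart.

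**Figure D1:**
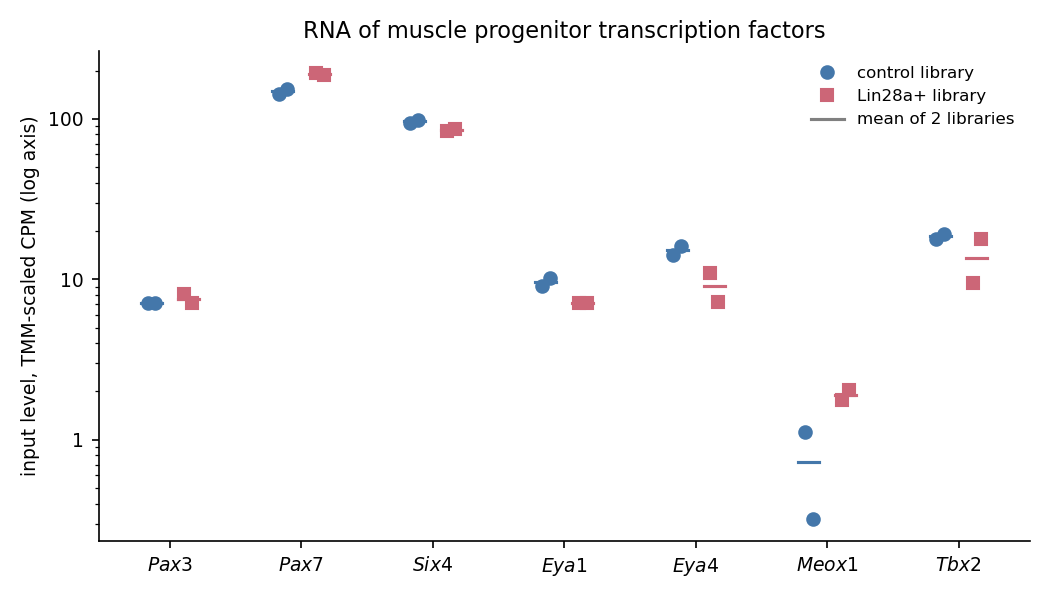
RNA level (TMM-scaled CPM, log axis) of the 7 members listed in the input, with control libraries as circles, Lin28a+ libraries as squares and lines at the mean of 2 libraries. Pax7 sits at 142 and 154 CPM in control against 193 and 188 CPM in Lin28a+ MuSCs, whereas 1 Lin28a+ library of Tbx2 reaches the control level.

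The m6A-RIP counts were compared for 5 members, which had 10 rows in all. The m6A-RIP table gives no positions, so its rows are numbered here in table order, and rows of a gene share its RNA. The Six4 m6A-RIP count, summed over 3 rows, was at 125 and 129 CPM in control and at 103 and 101 CPM in Lin28a+ MuSCs. The groups were apart, with a log2 fold change of -0.32 ± 0.043 (SE, edgeR adjusted p = 2.91e-05). Eya1 was at 30.6 and 30.8 CPM in control and at 23.7 and 22.7 CPM in Lin28a+ MuSCs, with a log2 fold change of -0.40 ± 0.081 (edgeR adjusted p = 0.000769). Eya4 was at 13.6 and 14.2 CPM in control and at 8.74 and 6.57 CPM in Lin28a+ MuSCs, with a log2 fold change of -0.87 ± 0.16 (edgeR adjusted p = 0.000491). These 3 calls held under each alternative run.

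Pax7 went the other way. Its m6A-RIP count was at 29.2 and 24.8 CPM in control and at 29.9 and 36.5 CPM in Lin28a+ MuSCs, so that the groups did not overlap but nearly met. The log2 fold change of 0.30 ± 0.11 (SE) passed the test (edgeR adjusted p = 0.0263), and the call was lost with total counts in place of TMM (0.20, edgeR adjusted p = 0.123). It was also lost without control m6A-RIP replicate 2, at 0.19, and without the second unnumbered Lin28a+ m6A-RIP library, at 0.14. Without control replicate 1 the value was 0.42, and without the first unnumbered Lin28a+ library 0.43. Tbx2, at 8.92 and 7.28 CPM in control against 8.04 and 5.77 CPM in Lin28a+ MuSCs, overlapped between groups and did not pass the test (log2 fold change -0.25 ± 0.20, edgeR adjusted p = 0.282).

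Summed per gene, 1 of the 5 members was higher, 3 were lower and 1 did not pass the test, beside 66.3% of all 9416 genes called, 32.5% higher and 33.8% lower. Total counts in place of TMM shifted the median change over all genes by -0.10 on the log2 scale, and the calls over all genes then split into 2395 higher and 3766 lower, against 3060 and 3179 with TMM. Per row, 4 members had a called row, while 61.8% of all rows were called.

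Of the 3 rows of Six4, 2 passed the test. Row 1 fell from 67.0 and 65.4 CPM in control to 51.4 and 50.8 CPM in Lin28a+ MuSCs (log2 fold change -0.37 ± 0.056, edgeR adjusted p = 4.82e-05). Row 2 fell from 35.6 and 39.8 CPM to 32.7 and 29.9 CPM (-0.27 ± 0.084, edgeR adjusted p = 0.0124), a call that was lost without control m6A-RIP replicate 2 (edgeR adjusted p = 0.0962) or without the second unnumbered Lin28a+ library (0.107). Row 3 was at 20.8 and 20.9 CPM in control and at 20.98 and 21.86 CPM in Lin28a+ MuSCs (log2 fold change 0.04 ± 0.099, edgeR adjusted p = 0.762), and the sign of this value turned with total counts, to -0.12. Row 3 made up 16.9% and 16.6% of the Six4 m6A-RIP counts in control and 19.97% and 21.3% in Lin28a+ MuSCs; this shift between rows was not tested. Of the 3 rows of Pax7, row 1 passed the test, at 7.88 and 7.22 CPM in control against 9.49 and 11.3 CPM in Lin28a+ MuSCs (log2 fold change 0.46 ± 0.16, edgeR adjusted p = 0.0185), and lost the call with total counts (adjusted p = 0.0995), without control m6A-RIP replicate 2 (0.0791) and without the second unnumbered Lin28a+ library (0.174). Rows 2 and 3 of Pax7 had log2 fold changes of 0.32 and 0.28 and did not pass. With a library left out, row 2 ranged from 0.19 to 0.44 and row 3 from 0.098 to 0.50. Eya1 and Eya4 had 1 row each, and the rows of Tbx2, at -0.31 and -0.07, did not pass.

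**Figure D2:**
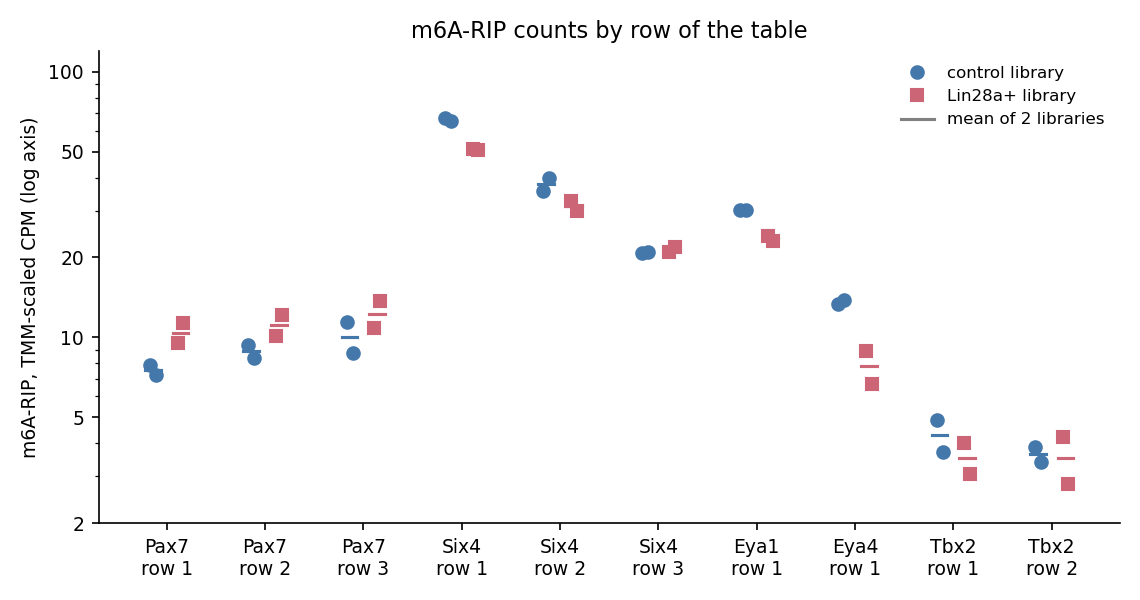
m6A-RIP level (TMM-scaled CPM, log axis) of each row of 5 members, with control libraries as circles, Lin28a+ libraries as squares and lines at the mean of 2 libraries. Rows 1 and 2 of Six4 and the rows of Eya1 and Eya4 are lower in Lin28a+ MuSCs, whereas row 3 of Six4 stays near 21 CPM in all 4 libraries.

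Whether m6A-RIP counts changed more or less than RNA was tested with an interaction of cells and assay, for which the same input libraries serve as the base. None of the 5 members was called, beside 7.13% of 7950 genes, and 1 had an unadjusted p under 0.05, beside 17% of genes. That member was Six4, at -0.16 ± 0.071 (SE, log2, edgeR adjusted p = 0.193). The other values were -0.08 ± 0.13 for Pax7, 0.04 ± 0.23 for Eya1, -0.15 ± 0.27 for Eya4 and 0.18 ± 0.35 for Tbx2. For Pax7, Eya1, Eya4 and Tbx2 the standard error exceeded the value itself.

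The Igf2bp3-RIP table held 21 peaks in 4 members, 8 in Eya1, 5 in Eya4, 4 in Pax7 and 4 in Six4, each inside the RefSeq span of its gene (positions read as mm10). Eya1 was the member with the largest difference. Summed over its 8 peaks, it was at 161 and 209 CPM in control replicates 1 and 2 and at 269 and 380 CPM in Lin28a+ replicates 1 and 2. The groups did not overlap, the log2 fold change was 0.81 ± 0.26 (SE), and it did not pass the adjusted threshold (edgeR adjusted p = 0.475). All 8 peaks of Eya1 had higher means in Lin28a+ MuSCs, with log2 fold changes from 0.63 to 0.98, in 5 of them with both Lin28a+ libraries above both control libraries, as in 15% of all 19465 peaks. The peaks lie along 1 RNA and are not independent of each other.

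Peak 8 of Eya1, chr1:14274109-14274398, was at 17.9 and 13.1 CPM in control and at 33.5 and 27.3 CPM in Lin28a+ MuSCs (log2 fold change 0.98 ± 0.30, edgeR adjusted p = 0.646). Peak 6, chr1:14252435-14252771, was at 38.3 and 30.2 CPM in control and at 65.8 and 58.0 CPM in Lin28a+ MuSCs (0.86 ± 0.28, edgeR adjusted p = 0.739). It was also the member peak with the highest level per length, 143 CPM per kb on the mean of 4 libraries, above 78.8% of all peaks. Peak 1, chr1:14169141-14171104, 188 bases from the lower-coordinate end of the gene, held 29.5% to 40.6% of the Eya1 counts in a library.

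Eya4 had the largest log2 ratio between its Lin28a+ replicates among these members, -1.27 for replicate 2 over replicate 1. Its summed Igf2bp3-RIP count was at 114 and 136 CPM in control and at 149 and 62.0 CPM in Lin28a+ MuSCs, so the Lin28a+ replicates lay on either side of control (log2 fold change -0.25 ± 0.41, edgeR adjusted p = 0.927). Without Lin28a+ replicate 2 the sign turned, to 0.29. Of its 5 peaks, 4 began 91 to 2752 bases from the lower-coordinate end of the gene, which RefSeq places on the minus strand, and the fifth 54371 bases from it.

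Six4 had a summed Igf2bp3-RIP count of 488 and 556 CPM in control against 579 and 531 CPM in Lin28a+ MuSCs. The groups overlapped (log2 fold change 0.09 ± 0.22, edgeR adjusted p = 0.961). Its 4 peaks were 487 to 2320 bases wide and stood, per length, at 57.3 to 127 CPM per kb. Peak 4, chr12:73112837-73113323, shared 128 bases with the Six4 window printed above, next to the MEF3 letters at chr12:73113336-73113344 but without them. This peak lies downstream of the start site of the other Six4 window. Igf2bp3-RIP measures RNA, so the overlap says nothing on the MEF3 site as DNA. Pax7 was at 90.1 and 88.4 CPM in control and at 115 and 74.9 CPM in Lin28a+ MuSCs, again with a Lin28a+ replicate on either side of control (log2 fold change 0.09 ± 0.26, edgeR adjusted p = 0.966).

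No member was called in Igf2bp3-RIP without a replicate block, neither per gene, beside 0.287% of 4527 genes, nor per peak, beside 0.123% of 19465 peaks. At an unadjusted p under 0.05 stood 1 member per gene and 3 peaks, all of Eya1, beside 8.44% of genes and 5.22% of peaks, and DESeq2 called none. A replicate block, a term for the replicate number in the fit, called Eya1 per gene and per peak. It called 8.26% of all genes and 10.2% of all peaks. No label ties a number to a batch, so the block stayed an alternative, detailed further below. Replicates of a group differed by more in Igf2bp3-RIP than in the other assays, with a common biological coefficient of variation of 27.9% over peaks against 7.72% over m6A-RIP rows and 2.48% over input genes.

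Relative to input, Eya1 was at 1.04 ± 0.33 (SE, log2, edgeR adjusted p = 0.132), Pax7 at -0.51 ± 0.28 (adjusted p = 0.324), Eya4 at 0.26 ± 0.61 and Six4 at 0.03 ± 0.17. None was called, beside 1.04% of 3927 genes, and 24.1% of genes had an unadjusted p under 0.05. With the replicate block Eya1 was called, beside 33.1% of genes. Without Lin28a+ Igf2bp3-RIP replicate 1, 2 members were called, Eya1 at 1.29 (edgeR adjusted p = 0.0355) and Pax7 at -0.82 (adjusted p = 0.0268), while the share called over all genes rose to 14.3%. Without Lin28a+ replicate 2, neither was called (edgeR, Eya1 at 0.80 with an adjusted p = 0.125 and Pax7 at -0.20 with 0.392), beside 4.59% of genes. Total counts in place of TMM shifted the median of all genes in this comparison by 0.14.

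**Figure D3:**
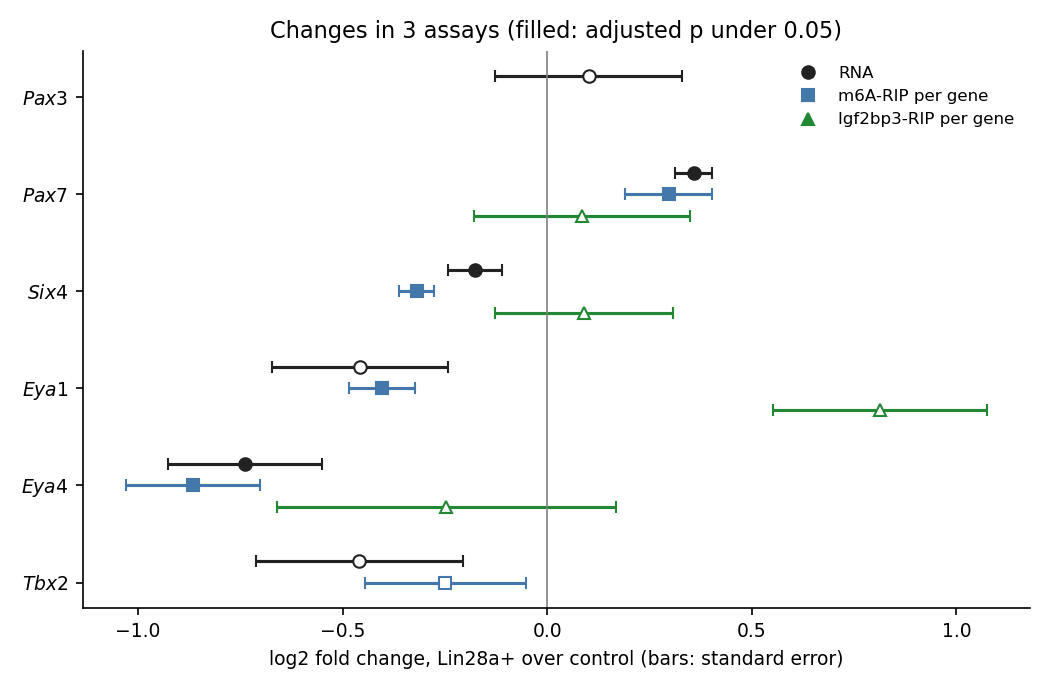
Log2 fold change (Lin28a+ over control) with its standard error for 6 members in RNA, m6A-RIP per gene and Igf2bp3-RIP per gene, filled where the adjusted p is under 0.05. Pax7 is at 0.36 in RNA and 0.30 in m6A-RIP, Eya4 at -0.74 and -0.87, and the Igf2bp3-RIP value of Eya1, 0.81, is not called.

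Lin28a-RIP was sequenced from Lin28a+ MuSCs only, so its values are levels with no comparison. Pax7 had 1 peak, chr4:139784621-139784850, at 16.4 and 16.3 CPM of the table's total, a gene level above that of 21.3% of the 3493 genes of the table. Six4 had 4 peaks that summed to 83.6 and 84.0 CPM, above 55.0% of genes. The highest of them was chr12:73103263-73104113, at 47.2 and 45.3 CPM. All 5 Lin28a-RIP peaks lay wholly inside an Igf2bp3-RIP peak of the same gene. By the looser rule of 1 shared base or more, 52.4% of the 21616 Lin28a-RIP peaks of the table overlapped an Igf2bp3-RIP peak. That share is over all genes, with or without Igf2bp3-RIP peaks, whereas Pax7 and Six4 both have them, so the values are not a like comparison. In Pax7 the shared stretch was the 230 bases of the Lin28a-RIP peak, 71.4% of Igf2bp3-RIP peak 3.

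**Figure D4:**
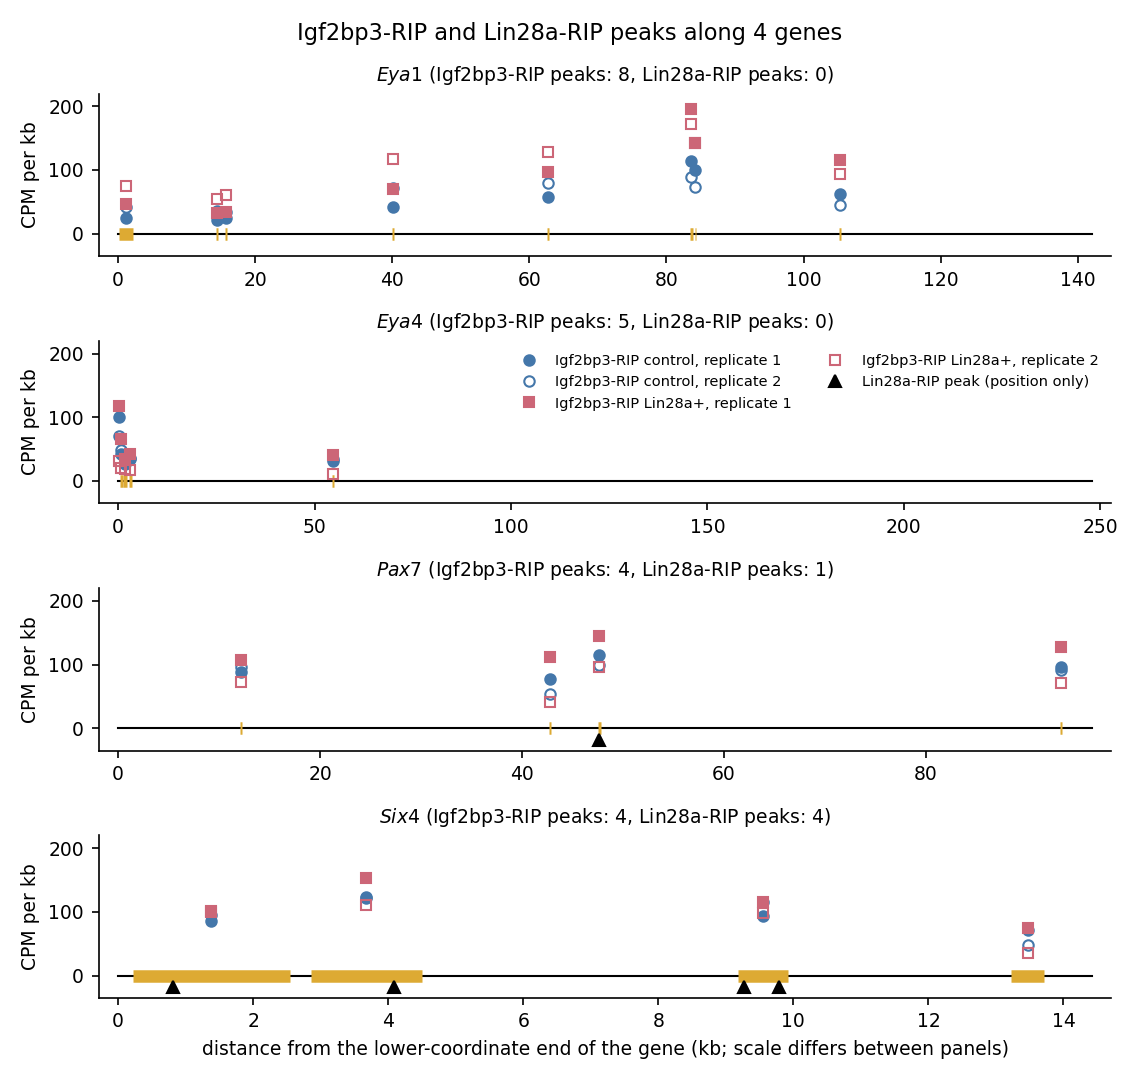
Igf2bp3-RIP level per length (CPM per kb) of each peak against its distance in kb from the lower-coordinate end of the gene, with control replicates as circles, Lin28a+ replicates as squares (replicate 1 filled, replicate 2 open), the gene as a black line, Igf2bp3-RIP peaks drawn on it as yellow bars to scale and triangles at the centres of Lin28a-RIP peaks. Peaks 6 and 8 of Eya1 show both Lin28a+ replicates above both control replicates, and each triangle in Pax7 and Six4 falls inside an Igf2bp3-RIP peak.

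Members differed in how much RIP signal they had for their RNA. As the log2 ratio of CPM in RIP to CPM in input, with 1 CPM added to each, Pax7 was at -2.35 in control and -2.55 in Lin28a+ MuSCs for m6A-RIP, above 6.37% and 5.85% of 7414 genes. For Igf2bp3-RIP it was at -0.73 and -0.98, above 15.9% and 12.5% of 3714 genes, and for Lin28a-RIP at -3.48, above 1.12% of 2867 genes. Eya1 was at the other end, at 4.12 in control and 5.32 in Lin28a+ MuSCs for Igf2bp3-RIP, above 90.6% and 95.2% of genes, and at 1.64 and 1.51 for m6A-RIP, above 76.1% and 76.2%. Six4 lay between them, at 0.46 and 0.19 for m6A-RIP and 2.42 and 2.69 for Igf2bp3-RIP, as did Eya4, at -0.06 and -0.28 and at 2.96 and 3.44. Tbx2 was at -1.04 and -0.94 for m6A-RIP. Input values of Eya1 were whole multiples of 1/9 in at least 3 of 4 libraries, within 0.02, and those of Pax7 multiples of 1/2, decimals that a mean over transcripts of a gene would give, so these ratios describe the tables and are not amounts of bound RNA.

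The relatives of these genes in the same network moved in either direction. Of 14 genes of the Pax-Six-Eya-Dach network, 9 were tested in RNA, of which 3 were higher, 2 lower and 4 did not pass, so that 55.6% were called beside 56.8% of all genes, with a median log2 fold change of 0.10 beside 0.01 over all genes. Six5, a relative of Six4 encoded next to the Dmpk gene, rose from 7.10 and 7.55 CPM to 12.2 and 11.4 CPM (0.68 ± 0.20), a call lost with DESeq2. In m6A-RIP, 9 of the network genes were tested, of which 2 were higher, 5 lower and 2 did not pass (77.8% called, beside 66.3% of all genes).

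Homeobox and T-box genes of muscle precursors held Lbx1 and Tbx1, with larger changes than any member. Of 20 genes, 15 were tested in RNA, of which 3 were higher, 6 lower and 6 did not pass (60% called, beside 56.8% of all genes), with a median log2 fold change of -0.46. Lbx1, which marks precursors that migrate into the limb, fell from 144 and 146 CPM in control to 3.92 and 4.08 CPM in Lin28a+ MuSCs (log2 fold change -5.17 ± 0.061). Tbx1, a regulator of branchiomeric head muscle, rose from 0.710 and 1.28 CPM to 22.2 and 20.2 CPM (4.32 ± 0.17). Tbx3, the closest relative of Tbx2, rose from 15.0 and 16.1 CPM to 23.6 and 25.8 CPM (0.67 ± 0.078), whereas Prrx1 and Msx2, homeobox genes of limb mesenchyme, fell by 1.19 and 1.17 on the log2 scale. The Tbx1 call was lost with a filter of at least 10 counts in every library, which removes the gene, and that of Tbx3 with DESeq2.

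**Figure D5:**
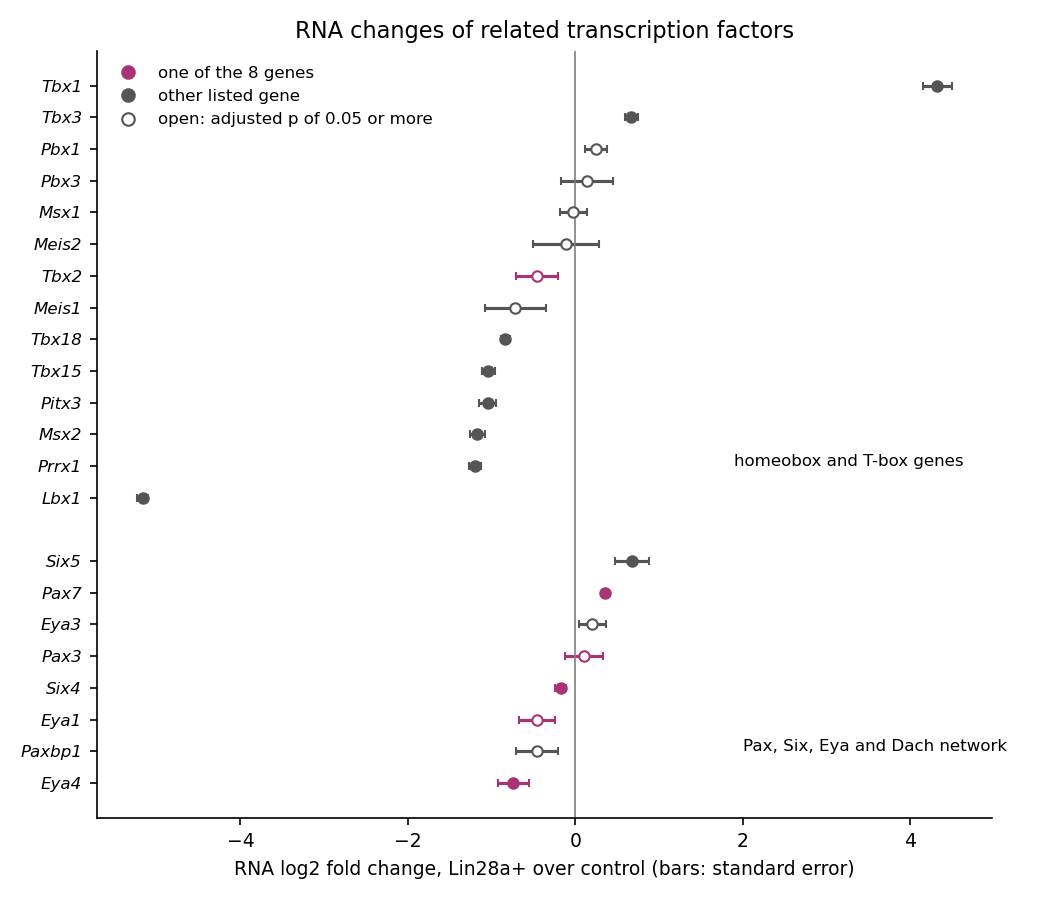
RNA log2 fold change (Lin28a+ over control) with its standard error of tested genes of the Pax-Six-Eya-Dach network (lower block) and of the homeobox and T-box list (upper block), the members in purple and values that did not pass the test open. Lbx1 at -5.17 and Tbx1 at 4.32 lie far outside the range of the members, -0.74 to 0.36.

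Known targets of Pax3 and Pax7 changed in either direction too. Of 18 genes, 16 were tested in RNA, of which 5 were higher, 7 lower and 4 did not pass (75% called, beside 56.8% of all genes), with a median log2 fold change of -0.13. Itm2a, a membrane protein induced in myogenic precursors, and Gas1, a growth arrest gene, rose by log2 fold changes of 1.86 ± 0.033 and 1.67 ± 0.026. Cdkn1c, the cell cycle inhibitor p57, was at 0.486 and 0.321 CPM in control, fewer than 3 counts in each library, and at 11.1 and 10.4 CPM in Lin28a+ MuSCs, and passed the test, but had no value under the filter of at least 10 counts in every library. Myf5, the myogenic factor that Pax7 activates, fell from 450 and 463 CPM to 196 and 200 CPM (log2 fold change -1.21 ± 0.029), and Spry1 and Fgfr4, genes of fibroblast growth factor signalling, fell by 1.47 and 1.34 on the log2 scale.

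Pax7 cofactors, which couple it to chromatin, were all tested. Of the 14 genes, 7 were higher, 1 was lower and 6 did not pass (57.1% called, beside 56.8% of all genes), with a median log2 fold change of 0.19. Trim28, a corepressor, rose by 0.87 ± 0.032 on the log2 scale, Dpy30, a subunit of histone H3 lysine methyltransferase complexes, by 0.80 ± 0.069 and Hdac1, a histone deacetylase, by 0.64 ± 0.043. Kmt2d, a methyltransferase of such complexes, fell by 0.28 on the log2 scale, a call lost with DESeq2.

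Other transcription factors of myogenic precursors also went either way. Of 21 genes, 18 were tested, of which 7 were higher, 6 lower and 5 did not pass (72.2% called, beside 56.8% of all genes), with a median log2 fold change of 0.07. Heyl, a target of Notch signalling, rose from 2.43 and 3.91 CPM to 47.5 and 54.6 CPM (log2 fold change 3.99 ± 0.17), and Sox8 and Snai1 rose by 2.55 and 1.65 on the log2 scale, Sox8 without a value under the filter of at least 10 counts. Sox9, Snai2 and Zeb2 fell by 1.61, 1.34 and 1.26 on the log2 scale. The values in the last 4 paragraphs are from edgeR's quasi-likelihood test, in which 18 of the 24 genes picked by the rule on size passed the threshold in all 11 settings.

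Genes with the most similar levels were sought by the Euclidean distance of log2(CPM + 1) over the 4 input and 4 m6A-RIP libraries among 7956 genes. The nearest was Aars for Pax7 (distance 0.29), Clint1 for Six4 (0.28), Rint1 for Eya1 (0.25), Syt12 for Eya4 (0.55) and Slc35c1 for Tbx2 (0.66).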

How the data were processed

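Cultured MuSCs were profiled by RNA-seq of input RNA and by m6A-RIP, Igf2bp3-RIP and Lin28a-RIP sequencing, with 2 libraries per group and assay. The submitters' processing notes name FastQC, HISAT2 2.0.4, MACS2 1.4.3 and DESeq2 1.42.0 and list the builds mm10 and GRCh38. The paper states GRCh38, a human assembly, but the identifiers are mouse, so peak positions were read as mm10. The program that counted reads and the library used as peak control are not given in the sources used here. The deposited input table holds estimated counts for each gene, not scaled between libraries, which need not be whole and were rounded for the tests. The deposited RIP tables hold whole-number counts for each row or peak.

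Columns were assigned by name, except the Lin28a+ columns of the input, which carry the names of m6A-RIP libraries. They were taken as input because the descriptions of the Lin28a+ input samples name that table. All Lin28a+ RNA values and changes relative to input rest on this reading. Both Lin28a+ columns of m6A-RIP carry the same name. The Lin28a+ columns of the input and m6A-RIP tables thus have no usable replicate number and were assigned to their group only. They are called the first and the second unnumbered library, in table order, and no number ties an input to a m6A-RIP library.

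All tests were fitted on whole tables in R 4.3.3 with edgeR 4.0.16 (quasi-likelihood test, TMM factors, filterByExpr, Benjamini-Hochberg adjusted p under 0.05). The code was run on simulated counts with 200 changed features, far fewer than were called in RNA and m6A-RIP here. That run therefore does not measure error rates in these data. Relative changes came from an interaction of cells and assay in 1 model with TMM factors within each assay. With 2 libraries per group, errors rest on a spread shared among genes. Levels are CPM scaled by TMM factors, in Lin28a-RIP and in ratios of RIP to input by total counts, with a pseudocount of 1 CPM in ratios. Alternatives were DESeq2 1.42.0, limma 3.58.1 (log2(CPM + 1), RNA), RLE size factors, total counts, other count filters, a replicate block for Igf2bp3-RIP and leaving out each library. Peaks were overlapped with GenomicRanges 1.54.1 by at least 1 base.

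The members, lists and tests were chosen with earlier results of these data known. Of each list that is not a marker list, the text names up to 3 genes that rose and up to 3 that fell most in RNA among those past the threshold without overlap between groups. As the gene most like a member it names the nearer of the 2 at the smallest distance. Further genes were named after their values were seen. Lin28a itself was not analysed here. Values of a few genes that the rule picks are not reported here. Gene lengths were not used, so percentiles of Lin28a-RIP levels and of RIP to input ratios among genes, and distances to the nearest genes, describe counts and not amounts of RNA per length. Lists got no set test. With 2 libraries per group, no sample of a group can be tested as an outlier.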

Additional observations from a re-analysis of the deposited data

How the results depend on the processing

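The members called in RNA numbered 3, 1 with DESeq2 and 1 to 4 when a library was left out. The members called in Igf2bp3-RIP numbered 0 per peak and per gene and also 0 relative to input, but 1 in each of these with a replicate block, which was Eya1 each time. With that block the summed Eya1 log2 fold change was 0.80 (edgeR adjusted p = 0.00629), 1.03 relative to input (0.00560), and 7 of its 8 peaks passed. Over the whole tables the block called 8.26% of genes (374, against 13 without it), 33.1% relative to input and 10.2% of peaks, and deviations of replicate 2 from replicate 1 had a correlation of 0.70 between groups over 19465 peaks. No label ties a number to a batch and there are only 2 pairs, so the block stayed an alternative. Relative to input, leaving out a library gave 0 to 2 called members. No paired analysis was possible for input and m6A-RIP because the names of their Lin28a+ columns give no usable replicate number.

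Signs of values that were not called turned as follows. With total counts, row 3 of Six4 in m6A-RIP was at -0.12. With a library left out, row 2 of Tbx2 ranged from -0.38 to 0.20. Relative to input, m6A-RIP ranged from -0.046 to 0.12 for Eya1, -0.42 to 0.20 for Eya4, -0.24 to 0.060 for Pax7 and -0.21 to 0.70 for Tbx2. Igf2bp3-RIP per gene ranged from -0.99 to 0.29 for Eya4, -0.24 to 0.40 for Pax7 and -0.0024 to 0.19 for Six4, and relative to input from -0.48 to 0.79 for Eya4 and -0.062 to 0.14 for Six4. The cause was not tested. Of the other recomputed values of single genes, rows and peaks, 380 stayed on their side of the threshold with the same sign, 16 newly passed it, and 14 lost it. The count of listed genes called in RNA, members left out, was 44, 31 with DESeq2, and 40 to 44 with a library left out. Depth limits Meox1, and in Igf2bp3-RIP the spread between replicates limits all 4 members.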

Other observations

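Eya2, another Eya gene with RIP rows, was listed in the input at 0.0268 to 0.0654 CPM over the 4 libraries, while its m6A-RIP count was at 36.9 and 40.2 CPM in control against 30.3 and 27.9 CPM in Lin28a+ MuSCs. Its Igf2bp3-RIP count was at 173 and 146 CPM in control against 129 and 90.2 CPM in Lin28a+ MuSCs. Its m6A-RIP log2 fold change of -0.41 ± 0.081 (SE, edgeR adjusted p = 0.000732) passed the test, as did those of Eya1 and Eya4. Eya2 was chosen after its values were seen.

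Relative to input, 8 genes of the Pax-Six-Eya-Dach network were tested in m6A-RIP. Of these, 1 was higher, 2 were lower and 5 did not pass (37.5% called, beside 7.13% of all genes). The 2 lower genes, Six5 and Paxbp1, are not members and were named after their values were seen. Six5 was at -0.78 ± 0.15 (SE, log2, edgeR adjusted p = 0.00905) and Paxbp1, a protein that links Pax factors to a histone methyltransferase, at -3.37 ± 0.32 (edgeR adjusted p = 9.78e-05).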
